A study of Mus musculus with 3 samples.

Results

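The fibroblast growth factor (FGF) ligand genes Fgf1, Fgf2, Fgf5, Fgf7, Fgf8, Fgf10, Fgf13, Fgf15, Fgf17 and Fgf18 were followed in mouse embryonic stem (ES) cells and in mouse embryonic fibroblasts (MEF). They were taken by their symbol in the gene name column of the scanner files, control spots left out, and every probe was kept. This gave 10 genes of 27656 on the array, probes without a gene name counted as genes, and 15 probes of 41174. The untreated ES cells, whose line the labels do not name, grew in Knockout DMEM with leukemia inhibitory factor, which holds ES cells in self-renewal, and defined serum. The MEF grew in DMEM with heat-inactivated fetal serum; their strain and passage are likewise not given. On each of 3 two-colour oligonucleotide arrays, RNA of 1 ES cell replicate, labelled with Cy3, was hybridised together with MEF RNA, labelled with Cy5 (the design text calls the Cy5 sample mix2, while every array's labels name MEF). The stated question was how expression in ES cells differs from that in MEF, and all ratios below are ES cells over MEF.

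FGFs of the secreted, paracrine kind bind receptor tyrosine kinases together with heparan sulfate and drive the Ras-ERK cascade, while Fgf15 belongs to the endocrine branch, whose members act with klotho co-receptors, and Fgf13 belongs to the intracellular branch, which binds sodium channels and microtubules. In ES cells, autocrine FGF4 is the best known ligand and moves the cells towards lineage commitment. Fgf4 matched no probe, so it was not analysed here. Fgf5 is the classical marker of the postimplantation epiblast, Fgf8 and Fgf17 act in the primitive streak and midbrain, and Fgf7 and Fgf10 are mesenchymal signals to neighbouring epithelia.

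The probes are 60 bases long, and a part of them is shown here. Those left out include the Fgf1 probes and the detected probes of Fgf8 and Fgf13. Each probe shown has at least 1 forward frame without a stop codon. The first, an Fgf8 probe, was above background in neither cell type.
Fgf8 probe 2: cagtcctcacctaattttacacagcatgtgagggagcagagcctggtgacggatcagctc
The first Fgf2 probe below is the brighter of 2, and the second crosses an intron, since its ends map far apart. The Fgf7 probe detected its transcript in both cell types, and both Fgf13 probes are those that stayed near background.
Fgf2 probe 1: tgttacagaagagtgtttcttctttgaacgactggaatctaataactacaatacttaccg
Fgf2 probe 2: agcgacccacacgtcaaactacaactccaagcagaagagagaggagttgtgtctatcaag
Fgf7 probe: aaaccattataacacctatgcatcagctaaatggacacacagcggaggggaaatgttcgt
Fgf13 probe 2: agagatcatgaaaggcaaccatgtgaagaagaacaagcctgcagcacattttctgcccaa
Fgf13 probe 3: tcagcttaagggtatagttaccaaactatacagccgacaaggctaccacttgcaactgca
On mouse build mm7, the build of the scanner files, these lie at chr19:45638514-45638573 (minus strand, Fgf8 probe 2), chr3:37215398-37215457 and chr3:37159793-37207012 (plus, Fgf2 probes 1 and 2), chr2:125830264-125830323 (plus, Fgf7), and chrX:54548120-54548179 and chrX:54612595-54612654 (minus, Fgf13 probes 2 and 3). Whether they fall in exons or coding parts was not determined, since no annotation for mm7 was at hand.

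Most FGF ligand genes were detected in both cell types, at different levels. Fgf15, Fgf17, Fgf1 and Fgf5 were called higher in ES cells, Fgf18, Fgf2 and Fgf7 were called lower, and Fgf13, Fgf8 and Fgf10 differed by less than 2-fold. Calls required at least a 2-fold change together with an adjusted p below 0.05 (limma, 19486 genes tested). All 10 genes passed the filter on dim probes, Fgf2 through MEF alone and Fgf15 through ES cells alone. Of the 27656 genes on the array, probes without a gene name included, 19486 were tested. Over all tested genes 20.4% were called higher and 22.5% lower, 42.8% in all, so the 4 higher and 3 lower members stand against a background in which change was common. By probe, 4 of the 11 tested member probes were called higher and 4 lower, where 19.9% and 21.1% of all tested probes were, 41.0% in all. The median log2 ratio was 0.23 for the 10 members and -0.05 for all tested genes. The 3 arrays lay close together: the median SD of a member's log2 ratio was 0.035, against 0.028 over all tested genes. The labels do not say whether separate cultures were used for the replicates; the p-values therefore cover array-to-array spread alone, possibly technical. The labels also do not say whether the MEF RNA was 1 preparation; it was treated as 1 control, so the spread between MEF samples was not measured, and no dyes were swapped, so a dye bias of a probe cannot be told apart from a difference between the cells. In such bulk RNA, fewer cells that express a gene and less RNA per cell cannot be told apart.

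**Figure D1:**
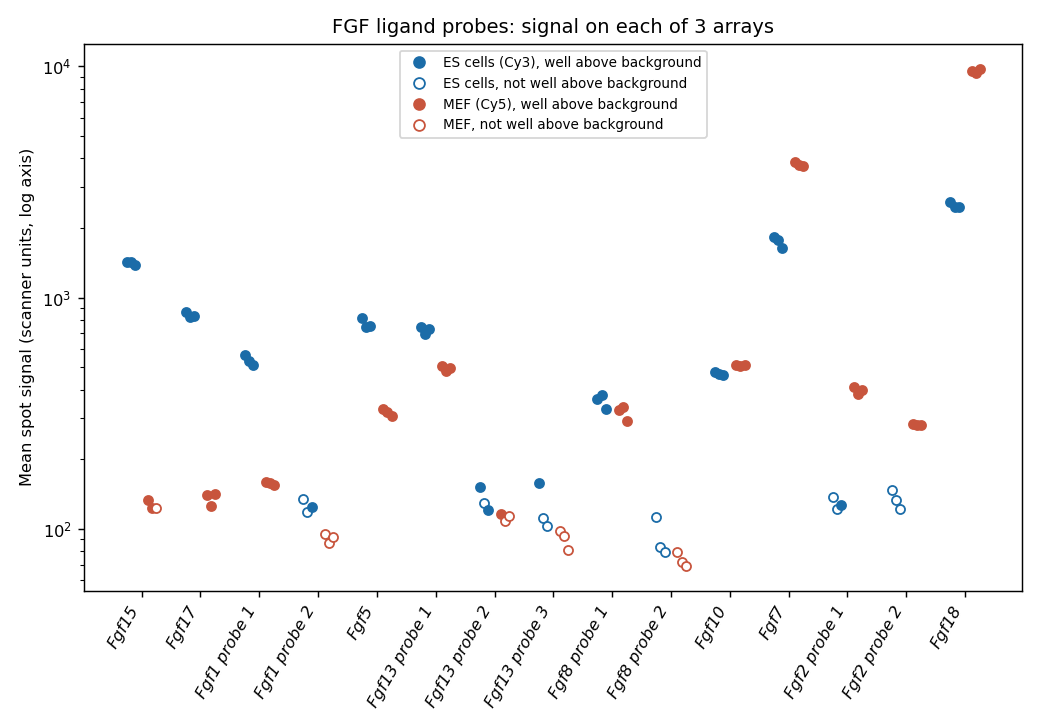
Mean spot signal in scanner units (log axis) of each of the 15 FGF ligand probes on each of 3 arrays, blue for ES cells and red for MEF, with open points where the probe was not well above background. Fgf15 and Fgf17 are bright in ES cells and near background in MEF (at most 142), whereas Fgf18 and Fgf7 are bright in both and brighter in MEF; heights of different probes are not comparable.

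Among the genes higher in ES cells, Fgf15, the mouse counterpart of human FGF19 and known as an enterohepatic hormone that restrains bile acid synthesis, had the highest ratio. Its probe (chr7:141325710-141325769, plus strand, mm7) gave scanner signals of 1430, 1430 and 1380 in ES cells and 133, 123 and 123 in MEF, before background subtraction, on the arrays of replicates 1, 2 and 3. The channels did not overlap, and the MEF signal was well above background on 2 of 3 arrays. The log2 ratio was 3.26 ± 0.12 (SD, n = 3 arrays), a 9.60-fold difference (adjusted p = 1.61e-06, limma). The scanner software's processed signals gave 4.43, and Fgf15 was not tested where both channels had to be above background on all arrays.

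Fgf17, a member of the Fgf8 subfamily, had signals of 865, 827 and 834 in ES cells and 140, 126 and 142 in MEF. Every ES cell signal lay far above every MEF signal, though the MEF signal was itself called well above background on all 3 arrays. Its log2 ratio was 2.47 ± 0.13 (SD, n = 3 arrays), 5.54-fold (adjusted p = 4.1e-06, limma), and 3.40 with processed signals.

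Fgf1, the acidic FGF, which binds every FGF receptor and lacks a classical signal peptide, had signals of 563, 532 and 512 in ES cells and 160, 158 and 154 in MEF. Both groups were well above background on every array and did not overlap. The log2 ratio was 1.63 ± 0.032 (SD, n = 3 arrays), a 3.08-fold difference (adjusted p = 5.61e-07, limma), and 2.33 with processed signals. This came from the brighter of 2 probes; the other, with ES cell signals of 134, 118 and 124, was above background in ES cells on 1 array and in MEF on none, and was not tested.

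Fgf5 was the least raised of the called genes. Its probe (chr5:97491844-97491903, plus strand) gave 816, 746 and 752 in ES cells and 330, 319 and 308 in MEF, all well above background. The ES cell signals all exceeded the MEF signals. The log2 ratio was 1.13 ± 0.044 (SD, n = 3 arrays), 2.19-fold (adjusted p = 2.71e-06, limma), and it ran from 1.11 to 1.43 over the alternative settings. MEF thus carried signal for this epiblast marker as well. Other genes of the primed epiblast went the same way: all 7 tested genes of 8 listed were called higher, where 20.4% of all tested genes were. Their log2 ratios ran from 1.11 (Zic2) to 4.52 (Dnmt3b), with the median at 2.37. All 10 ES cell markers were called higher too (median 3.86), so these calls against MEF do not place the ES cells in a primed state.

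Of the genes lower in ES cells, Fgf18, a ligand of skeletal and lung mesenchyme and another member of the Fgf8 subfamily, stood lowest under the main processing. The probe (chr11:33069451-33069510, minus strand) gave 2600, 2470 and 2470 in ES cells and 9530, 9380 and 9750 in MEF. Both cell types were well above background on all arrays, and the groups did not overlap. The log2 ratio was -2.10 ± 0.038 (SD, n = 3 arrays), 4.29-fold lower in ES cells (adjusted p = 4.09e-07, limma).

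Fgf2, the basic FGF, a fibroblast mitogen without a classical signal peptide, was near background in ES cells. By its brighter probe the signals were 137, 122 and 127 in ES cells, above background on 1 of 3 arrays, and 412, 381 and 398 in MEF. The log2 ratio was -1.67 ± 0.040 (SD, n = 3 arrays), 3.17-fold lower (adjusted p = 7.68e-07, limma), and -2.88 with processed signals. The probe that crosses an intron gave 147, 133 and 122 in ES cells and 284, 280 and 280 in MEF, each the mean of 10 spots. Most of its ES cell spots were not well above background on any array, so its value is a bound, at least 2.27-fold lower in ES cells. Its log2 ratio without the bound was -1.18 (adjusted p = 2.95e-06 against 0, limma, over 29498 probes). Both probes thus placed Fgf2 lower in ES cells. In the RefSeq gene table of GRCm38.p6, Fgf2 overlaps Nudt6, which is transcribed from the opposite strand and itself had a log2 ratio of -2.72; whether the labelling kept the strands apart is not given in the sources used here.

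Fgf7, keratinocyte growth factor, was well above background in both cell types. Its signals were 1820, 1780 and 1630 in ES cells and 3860, 3750 and 3690 in MEF, without overlap. The log2 ratio was -1.28 ± 0.032 (SD, n = 3 arrays), 2.43-fold lower (adjusted p = 1.09e-06, limma). With each array centred on its median in place of loess the ratio was -1.02, close to the 2-fold limit. For comparison, the log2 ratios of the 10 fibroblast marker genes ran from -8.10 (Col1a1) to -2.52 (Thy1) by their brightest probes.

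**Figure D2:**
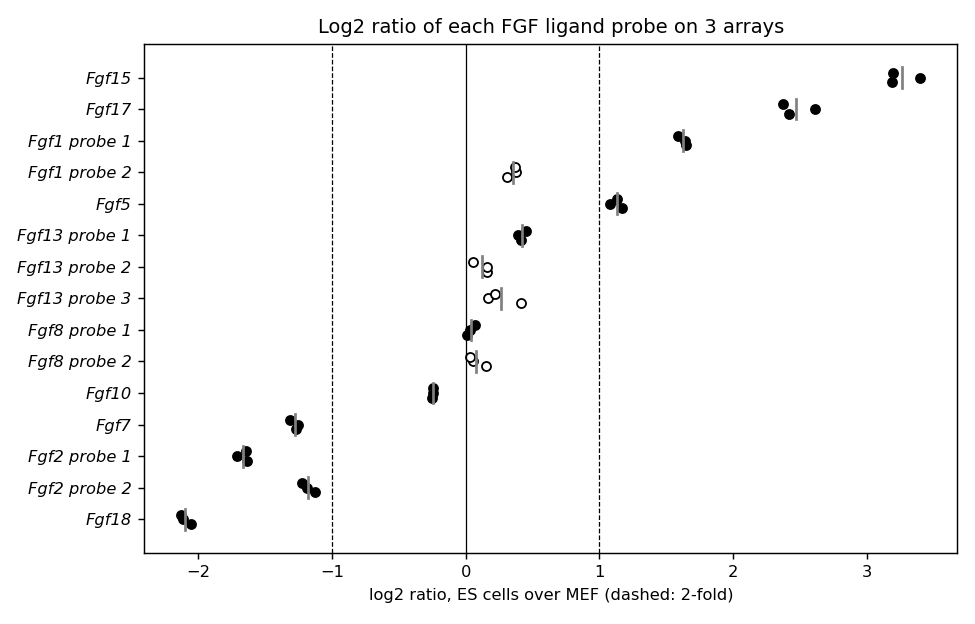
Log2 ratio of ES cells over MEF for each of the 15 probes on each of 3 arrays (points), with the mean (grey bar), 0 (solid line) and 2-fold (dashed lines); open points are probes that did not pass the filter on dim signals. From Fgf15 at 3.26 down to Fgf18 at -2.10, the 3 points of neighbouring genes' main probes do not overlap.

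Fgf13, Fgf8 and Fgf10 were not called. By its brightest probe (chrX:54543296-54543355, minus strand), Fgf13 gave 744, 693 and 728 in ES cells and 507, 480 and 497 in MEF, a log2 ratio of 0.42 ± 0.028 (SD, n = 3 arrays; adjusted p = 2.77e-05, limma) that fell short of 2-fold. Fgf10, by a probe on chromosome 13 (115999939 to 115999998, plus strand), gave 475, 467 and 462 in ES cells and 510, 506 and 511 in MEF. Its log2 ratio was -0.25 ± 0.0036 (SD, n = 3 arrays; adjusted p = 5.01e-05, limma), a 1.19-fold step. With median centring in place of loess it was -0.08, so the size of this small difference depended on the normalization. For Fgf8 (chr19:45633777-45633836, minus strand) the signals were 363, 378 and 331 in ES cells and 325, 335 and 293 in MEF, and these ranges overlapped. The overlap rested on 1 outlier spot on the array of replicate 2, without which that array gave 346 and 308 and every ES cell signal exceeded every MEF signal. The log2 ratio of 0.038 ± 0.029 (SD, n = 3 arrays) had an adjusted p of 0.091 (limma). This p depended on the scaling: it was 0.0195 with processed signals and 0.0176 from the authors' deposited table (limma, log2 ratio 0.12 in both). The deposited table holds nearly the same ratios as the processed signals, so these p-values are not separate checks. Median centring gave Fgf8 a log2 ratio of 0.18. Adjusted p-values under median centring are not comparable with the main ones, since limma gave 5.52e-151 there for Fgf1 from 3 arrays. All 3 genes were well above background in both cell types on every array.

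Probes of one gene did not always detect it alike. Of the 4 members with more than 1 probe, Fgf1, Fgf8 and Fgf13 each had 1 probe above background in both channels on every array, while their other probes did not pass the filter; 11 of the 15 probes passed. Fgf8 probe 2, shown above, was above background on no array in either channel, with ES cell signals of 112, 83.8 and 79.0. Fgf13 probes 2 and 3 gave ES cell signals of 151, 129 and 121 and of 157, 111 and 103, above background on 2 arrays and 1 array. On the minus strand the detected probes of Fgf8 and Fgf13 have the lower coordinates and so lie nearer the 3′ end.

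**Figure D3:**
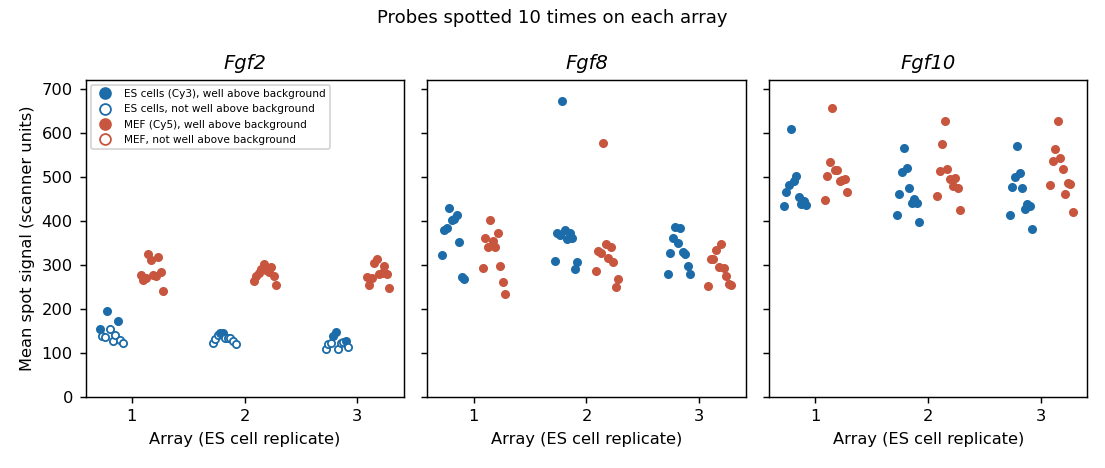
Mean signal (scanner units) of the 10 spots of the repeated Fgf2, Fgf8 and Fgf10 probes on each array, blue for ES cells and red for MEF, open where a spot was not well above background. Fgf2 spots of ES cells all lie below those of MEF, whereas the ranges of the channels overlap for Fgf8 and Fgf10, although both channels are read from the same spot. On the array of replicate 2, 1 Fgf8 spot stands at 671.

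Repeated spots gave a second measure of error for Fgf2, Fgf8 and Fgf10. The Fgf2 spots lay between 107 and 196 in ES cells and between 240 and 325 in MEF over the 3 arrays, with no overlap, and 2 or 3 of 10 ES cell spots per array were well above background. Fgf10 spots lay between 381 and 609 in ES cells and between 420 and 655 in MEF. Fgf8 spots lay between 268 and 429 in ES cells on the arrays of replicates 1 and 3. On the array of replicate 2 the brightest Fgf8 spot stood at 671 in ES cells and 577 in MEF, while the next stood at 379 and 347. Outlier spots, 1 on that array for Fgf8, were left out of the ratios. Both channels are read from the same spot, so these ranges do not show the paired difference. Before normalization, the ES cell signal exceeded the MEF signal at every Fgf8 spot. At Fgf10 spots the MEF signal was the higher, save at 1 spot on the array of replicate 2 (519 in ES cells, 518 in MEF).

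Ordered by ratio, the members ran Fgf15 (3.26), Fgf17 (2.47), Fgf1 (1.63), Fgf5 (1.13), Fgf13 (0.42), Fgf8 (0.038), Fgf10 (-0.25), Fgf7 (-1.28), Fgf2 (-1.67) and Fgf18 (-2.10). Under this main processing, in none of the 9 neighbouring pairs did the ratios of the 3 arrays overlap. The order of Fgf2 and Fgf18 depended on the setting, however. Fgf2 stood below Fgf18 with processed signals (-2.88 against -1.97) and with normexp at offset 0 (-2.18 against -2.10). Between the nearest arrays of neighbouring genes, the narrowest gap, 0.26, lay between Fgf8 and Fgf10, and the widest, 1.00, between Fgf10 and Fgf7. Genes of 1 subfamily did not sort together. Within the Fgf8 subfamily, Fgf17 was called higher, Fgf18 lower and Fgf8 neither. Within the Fgf1 subfamily, Fgf1 was higher and Fgf2 lower, and within the Fgf7 subfamily Fgf7 was lower and Fgf10 not called.

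Among the other ligand genes, 11 of 12 listed had a probe and 5 passed the filter. Fgf21, an endocrine FGF of fasting metabolism, was called lower at -4.36 ± 0.029 (log2, SD, n = 3 arrays), with its 2 probes at -4.36 and -3.84 and -5.52 with processed signals. Fgf9, an epithelial and gonadal signal, was not above background in ES cells on any array and was at least 5.32-fold lower. Its log2 ratio without the bound was -2.47 (adjusted p = 1.98e-06 against 0, limma). Fgf3, which lies beside Fgf4 and Fgf15 in the RefSeq table, had no MEF signal well above background. The bound was at least 2.25-fold in favour of ES cells, and the log2 ratio without the bound 1.33 (adjusted p = 2.52e-05 against 0, limma). Fgf9 passed the filter through MEF alone and Fgf3 through ES cells alone, so these p-values do not stand apart from that filter. Fgf11 (0.80, with another probe at -1.38) and Fgf23 (-0.31) were not called, and Fgf6, Fgf12, Fgf14, Fgf16, Fgf20 and Fgf22 did not pass the filter.

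By the brightest probes, the receptor side was mostly lower in ES cells. Of 7 receptor and co-receptor genes 6 were tested, of which 4 were called lower and 1 higher, with a median log2 ratio of -1.68. Over all tested genes 22.5% were called lower. Fgfr2 (-2.61 by the brightest, -0.45 by the least changed of 3 probes) and the decoy receptor gene Fgfrl1 (-2.26) were lowest. Klb, the co-receptor of endocrine FGFs, was higher at 1.59 ± 0.16 (SD, n = 3 arrays), and 2.73 with processed signals, its MEF signal being well above background on just 1 array. Fgfr4, also lower at -1.88, had a probe at 1.35 and a mean of -0.17 over its tested probes. Binding proteins and heparan sulfate enzymes, which shape the co-receptor, had 12 of 15 tested genes lower and 1 higher (median -1.65). The sulfotransferase gene Hs6st2 (-3.95, with another probe at -1.27) and Flrt2 (-3.15) were lowest, and the carrier protein gene Fgfbp1 was higher (2.57, and 3.65 with processed signals).

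In the cytoplasmic cascade 3 of 18 tested genes were higher and 4 lower, with log2 ratios from -1.70 to 2.80 and a median of -0.11. The docking protein gene Gab1 stood at 2.80, while the adaptor gene Shc1 (-1.70) and Mapk3, which encodes ERK1 (-1.64), were lower. Targets and feedback genes split, with 4 of 15 higher and 5 lower (median 0.05). The feedback inhibitor gene Spry4 (3.05, another probe 0.94) and the FGF-responsive transcription factor gene Etv5 (3.05, another probe 1.76) were highest, whereas Spry1 (-2.90) and the immediate early gene Egr1 (-2.97) were lowest. The shares called are to be read against the 42.8% of all tested genes.

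**Figure D4:**
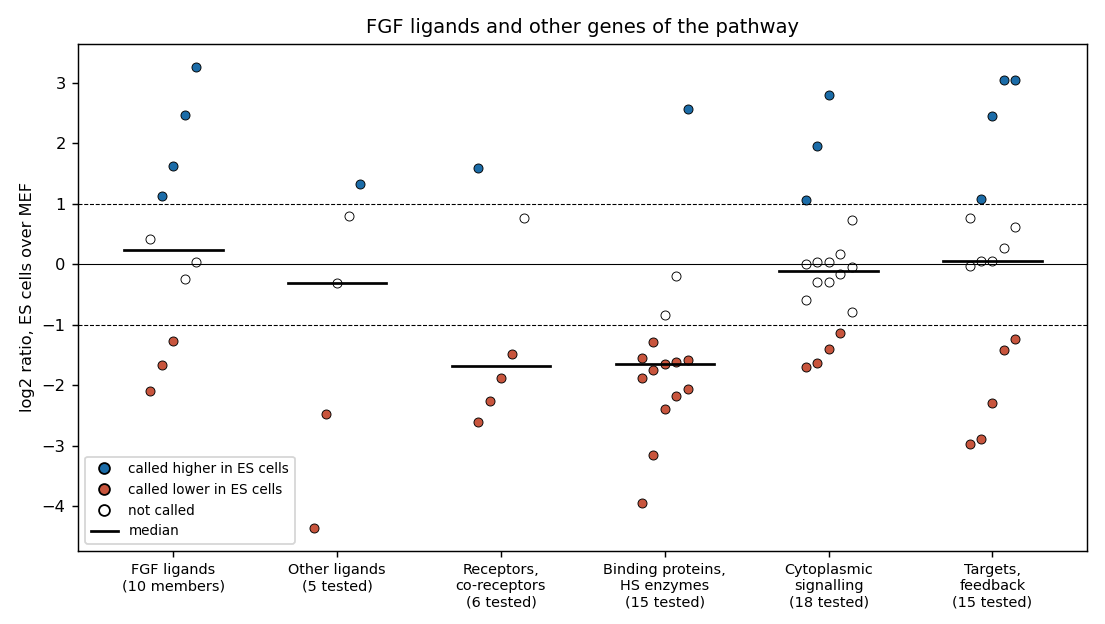
Log2 ratio of ES cells over MEF (mean of 3 arrays, brightest probe) of the 10 FGF ligand genes and of the tested genes of 5 other lists of the pathway; HS is heparan sulfate, bars are medians, colour marks calls, dashed lines mark 2-fold. Medians of receptors (-1.68) and of binding proteins and heparan sulfate enzymes (-1.65) lie below that of the ligands (0.23).

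Markers checked the labels, with counts to be read beside the 20.4% called higher and 22.5% called lower over all tested genes. All 10 ES cell markers were called higher in ES cells (median 3.86) and all 10 fibroblast markers lower (median -4.83), and both lists were above background in both channels on every array. All 10 macrophage markers were lower in ES cells (median -5.05), with summed MEF signals of 508000 to 547000 against 12500 to 12900 in ES cells. Neural and glial markers had 5 of 9 tested genes lower and 2 higher. Fibroblast markers summed to 1870000 to 1900000 in MEF and 47100 to 48600 in ES cells. Primitive streak markers had 2 of 5 tested genes higher and 1 lower. The 2 higher, T and Eomes, were detected on all 3 arrays in ES cells but on none in MEF. Gsc was lower (-1.83) and detected in both cell types, and Wnt3 and Mesp1 were not called. The part of these other cell types in the ligand signals was not tested. The share of gene spots well above background was 68.6% to 70.6% for ES cells and 68.2% to 74.0% for MEF.

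**Figure D5:**
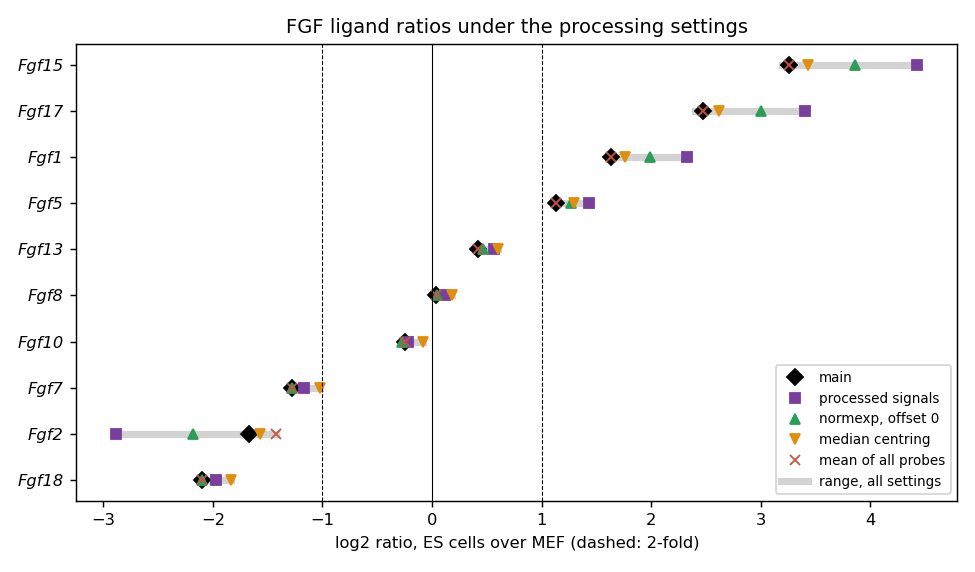
Log2 ratio of ES cells over MEF of each FGF ligand gene under the main processing (diamond), 4 alternatives (other marks) and over all settings (grey bar). No member crosses 0 or a dashed 2-fold line; Fgf15, Fgf17, Fgf1 and Fgf2, each dim in 1 cell type, move farthest from the main value.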

How the data were processed

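RNA of 3 ES cell replicates (Cy3) was measured against MEF RNA (Cy5) on 3 arrays, grouped by the source names in the labels. Images were read by the authors in Agilent Feature Extraction 9.5.3.1, per the file headers. The deposited intensities are mean spot and median local background brightness; for the processed intensities also deposited, the software had subtracted background and balanced the dyes. In the deposited log10 ratio, red (MEF) is divided by green (ES cells). The authors' deposited log2 value table differed by no more than 0.01 from that ratio with its sign turned for 85.4% to 87.8% of probes (column medians 0.213, 0.0859 and -0.143); what was done to the rest is unknown.

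Signals were corrected with normexp (offset 50) and loess in limma 3.58.1 (R 4.3.3), control spots at weight 0, outlier spots left out, and spots of a probe averaged. This offset pulls ratios of dim probes towards 0. A probe counted as above background where more than 50% of its spots were; it was kept if so on all 3 arrays in 1 channel, and the brightest stood for its gene. Genes were named through RefSeq (GRCm38.p6) for 22951 probes by accession and 10062 by symbol, synonym or gene number. Another 8161 probes kept the name in the scanner files, in some cases a bare probe name, and all such names count among the genes. lmFit and eBayes tested the mean against 0, with Benjamini-Hochberg adjustment. For a bound, the dim channel was taken on each array as its own signal or as the lowest signal well above background, whichever was larger; dye bias can enter it. All arrays lay on 1 slide, so no slide effect could be tested. The procedure was tested on simulated arrays. Medians and counts of lists carry no test. Named were all members, other ligands on the array, the 2 highest and 2 lowest called genes of each other list, and the 3 genes of most similar ratio to the highest and lowest member. Genes named outside this rule (Thy1, Col1a1, Zic2, Dnmt3b, T, Eomes, Gsc, Wnt3, Mesp1, Fgfr4 and the neighbours) were chosen after their values were seen. Members and lists were chosen with earlier results of these data known. Some results that fall under this rule are not reported here.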

Additional observations from a re-analysis of the deposited data

How the results depend on the processing

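All 10 members kept the direction and the call of their log2 ratio under every alternative that gave them a value at the same fold minimum: processed signals, normexp with offset 0, no background subtraction, median centring, no dim filter, detection required in both channels, a gene's probes averaged, the authors' value table, outlier spots kept, and each replicate left out. The value table and the processed signals gave the members nearly the same ratios and do not count as separate checks. Of the 10, 4 were called higher and 3 lower, except that requiring detection in both channels left out Fgf15 and Fgf2 (3 higher, 2 lower), and without the fold minimum 5 were higher and 4 lower. Without that minimum 8948 genes of all 19486 were called higher and 9651 lower, against 3971 and 4375 with it, so the fold minimum sets the calls. Sizes moved most for genes dim in 1 cell type: normexp with offset 0 gave 3.86 for Fgf15 and -2.18 for Fgf2, and processed signals 4.43 and -2.88. Median centring moved the median of all genes from -0.05 to 0.11 and Fgf10 from -0.25 to -0.08. Each ratio already pairs ES cells with MEF on 1 array, and no further replicate block could be fitted, since the numbers belong to 1 group. Signal over background limits Fgf2 in ES cells and Fgf15 in MEF, where ratios rest on signals near background.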

Other observations

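Probes outside the symbol rule, chosen after their values were seen because their descriptions name a member, added the following. A probe of a cDNA described as Fgf15 (chr7:141323091-141323150, mm7) was detected on all 3 arrays in ES cells and on none in MEF, with ES cell signals of 484, 430 and 412, and was at least 4.02-fold higher in ES cells, the direction of the Fgf15 probe. A probe described as an Fgf13 isoform gave 123, 111 and 126 in ES cells, above background on 1 array, and 124, 120 and 147 in MEF. These near-background signals overlapped, and the log2 ratio of -0.23 ± 0.029 (SD, n = 3 arrays) was not called. The brightest Fgf13 probe stood at 0.42, also not called. A probe described as antisense to Fgf2 was not above background in ES cells on any array, and above it in MEF on 2. Its signals, 141, 115 and 118 in ES cells and 126, 116 and 118 in MEF, overlapped. It did not pass the filter, and its log2 ratio was -0.084.

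In the gene order of the RefSeq table, Fgf15 lies next to Fgf4 and then Fgf3, which was also higher in ES cells, and on its other side lies LTO1 (0.26, not called) and then Ccnd1, the cyclin D1 gene, which was lower (-1.07). Near Fgf13 on the X chromosome lies Mcf2, called higher at 4.13, while Fgf13 at 0.42 was not called. Npm1 beside Fgf18 was higher (1.42), opposite to Fgf18 (-2.10). The genes with ratios nearest to Fgf15 over the 3 arrays were Rec114, a meiotic recombination gene, Nkx2-9 and a probe without a gene name, at Euclidean distances of 0.064, 0.070 and 0.080 among 19486 tested genes. Those nearest to Fgf18 were Itga5, the fibronectin receptor subunit, Rarres1 and Rgs8, at 0.014, 0.016 and 0.016. These are closest matches by size of ratio only.

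The brightest Fgf8 spot sat at the same position of the layout on all 3 arrays, at 429, 671 and 385 in ES cells, and so did the brightest Fgf10 spot, at 609, 564 and 569.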
